A study of Rattus norvegicus with 241 samples.

Results

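The latent TGFβ binding and activation genes are 8 genes taken by name from every bulk and single-cell table of a study of rat mammary glands, with symbols matched ignoring case. They are the 4 latent TGFβ binding proteins (LTBP1, LTBP2, LTBP3 and LTBP4), the thrombospondins THBS1 and THBS2, and the fibrillins FBN1 and FBN2, out of 21707 genes in the whole series. All 8 were present in each of the 16 bulk tables and in the 3 single-cell data sets. The rule took the members by name and used no measured value.

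TGFβ is secreted in a latent form, held inactive by its own propeptide. LTBP1, LTBP3 and LTBP4 bind that latent complex through disulfide bonds and park it in the extracellular matrix, whereas LTBP2 is an elastic fiber protein that does not bind the latent complex in this way. Fibrillin-1 and fibrillin-2, the products of FBN1 and FBN2, form the microfibrils on which the LTBPs dock. Thrombospondin-1, the product of THBS1, can release TGFβ from its propeptide, and thrombospondin-2, encoded by THBS2, is a related matricellular protein that lacks the activating sequence. THBS1 and several of the matrix genes are themselves known to respond to TGFβ in many cell types, and in the mammary gland TGFβ restrains ductal growth.

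Female rats received LY2157299 (TGFBRi), which blocks the kinase of TGFβ receptor type I, at 75 mg/kg by oral gavage 2 times a day, or vehicle. Bulk RNA-seq was made from cells sorted as CD24+CD29high (the basal sort), CD24+CD29low (the luminal sort) or CD45+ (leukocytes). The basal and luminal gates lay within CD31-CD45- cells, which should remove endothelium and leukocytes. Young ACI rats were dosed for 10 days from day 35 of age, with 3 rats per treatment taken 0, 7 or 14 days after the last dose, and young Sprague Dawley (SD) rats were dosed for 10 days from day 24, with 4 rats per treatment at day 0. Adult ACI rats, 18 to 24 weeks old at the start, dosed for 10 days and taken at day 0, were virgin or parous, with 4 rats per group in the epithelial sorts and 2 to 4 in the CD45+ sort. In the nitrosomethylurea (NMU, a chemical carcinogen given at 50 mg/kg) experiment every rat was SD and received NMU, dosing with TGFBRi or vehicle ran for 10 days from day 21, and 3 tumor-bearing vehicle rats were set against 3 tumor-free and 3 tumor-bearing TGFBRi rats, all labelled day 87. In the estradiol (E2, a 37 mg pellet) experiment dosing ran for 21 days from day 38 in 17 ACI rats, whose glands were taken late, once tumors had grown, with 3 or 4 rats per group apart from 2 tumor-bearing TGFBRi rats, and tumors of 6 NMU rats, also labelled day 87, were sorted as EPCAM+ and CD45+ cells. Vehicle rats of the NMU glands and of the E2 glands with pellets all bore tumors, so that treatment and tumor status cannot be told apart in the contrasts with tumor-free TGFBRi rats. Tumor-bearing TGFBRi rats were compared at equal status, and both contrasts share the vehicle rats. Single cells at day 0 came from rats dosed for 10 days, ACI from day 35 and SD from day 24 of age. They were sorted epithelium of 3 vehicle and 3 TGFBRi ACI rats, sorted epithelium of 3 vehicle and 6 TGFBRi SD rats, and whole glands of 3 vehicle and 6 TGFBRi SD rats.

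The 202 bulk libraries held 4194912 to 52314784 reads on genes. The sorted single-cell libraries held 563 to 3853 cells with a median of 4251 to 15941 UMIs (unique molecules) per cell, and the whole-gland libraries 7900 to 16424 cells with a median of 2820 to 3885 UMIs. Of the 97157 distinct whole-gland cell barcodes, 6127 occurred in 2 or more libraries (6.31%), against 0.209% in the sorted ACI and 0.546% in the sorted SD cells. These data sets differ in size, with 103524, 16762 and 39766 cells in the same order, and in protocol. Whether the sharing is what chance gives at these numbers of cells was not tested. Among the young ACI epithelial libraries 4 rats were taken, after the data were seen, as standing apart (LD2LR and LD11L, vehicle at days 7 and 14, and LD6R and LD20L, TGFBRi at days 7 and 14), and results are given with and without them. Their basal libraries had a median Spearman correlation with the others of 0.745 to 0.829, against 0.922 over all basal libraries. The 3 basal libraries of TGFBRi rats at day 0 were as low or nearly so (LD10R at 0.824, LD7R at 0.825 and LD7L at 0.866) and were kept. The luminal library of LD11L, at 0.942 against 0.932 over all, did not stand apart. The adult virgin vehicle rat C_N1N had the highest PTPRC (CD45) of its basal group, at 694 normalized counts against a group median of 1.69. The labels disagreed on LD2LR (taken as vehicle) and on the day of the CD45+ library of LD9R (taken as day 7).

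LTBP2 and THBS1 were the members most often lowered with TGFBRi, and the 250 bases before their RefSeq starts are shown because the SMAD transcription factors that relay TGFβ signaling bind short CAGAC boxes. Both are from RefSeq, build GRCr8, and read 5′ to 3′ on the gene's strand, with CAGAC or its reverse complement GTCTG, and the TEAD motif GGAATG, in capitals.
LTBP2, minus strand, chr6:110257299-110257548: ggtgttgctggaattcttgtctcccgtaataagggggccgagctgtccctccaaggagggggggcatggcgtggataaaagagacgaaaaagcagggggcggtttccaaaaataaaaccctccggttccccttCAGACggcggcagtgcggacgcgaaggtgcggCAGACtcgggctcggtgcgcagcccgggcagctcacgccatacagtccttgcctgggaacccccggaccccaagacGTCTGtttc
THBS1, plus strand, chr3:125510000-125510249: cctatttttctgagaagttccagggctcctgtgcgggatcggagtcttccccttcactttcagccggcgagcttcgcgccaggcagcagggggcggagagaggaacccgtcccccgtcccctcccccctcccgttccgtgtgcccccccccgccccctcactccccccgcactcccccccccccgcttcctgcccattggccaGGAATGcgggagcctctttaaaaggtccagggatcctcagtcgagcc
Motifs were counted on both strands of the 300 bases that also hold the 50 bases after the start, and no 2 of them overlapped in these promoters. LTBP2 had 3 CAGAC matches, FBN2 had 2, LTBP1 and FBN1 had 1 each, and LTBP3, LTBP4 and THBS1 had 0, while 50.1% of 33469 promoters of this length held at least 1. THBS1 and FBN2 each held 1 GGAATG, present in 14.2% of promoters, and none of these 7 members held the AP-1 motif TGANTCA (7.33%). A promoter for THBS2 was not analyzed here.

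In whole glands of vehicle rats each member had its own range of named cell classes, and among these only LTBP2 and THBS1 were highest in epithelium. Cells of clusters left unnamed are not covered. These were 3354 of 16424, 2447 of 12615 and 2233 of 11789 cells in vehicle rats 1, 2 and 4. Levels are CPM, a gene's UMIs relative to all UMIs of a class in a rat, as mean ± SD over 3 rats, and are compared within a gene, not between genes. LTBP2 was highest in basal-like cells, at 167 ± 76.9, followed by lymphatic endothelium-like cells at 35.8 ± 48.6, whose range over rats overlapped, and it was at 0.246 ± 0.273 in mature luminal-like cells. THBS1 was at 1172 ± 274 in luminal progenitor-like and 904 ± 225 in basal-like cells, which overlapped, and at 267 ± 104.7 in vascular smooth muscle-like cells, below both. The plot of mean levels by class shows the stromal and vascular pattern of the other members.

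**Figure D1:**
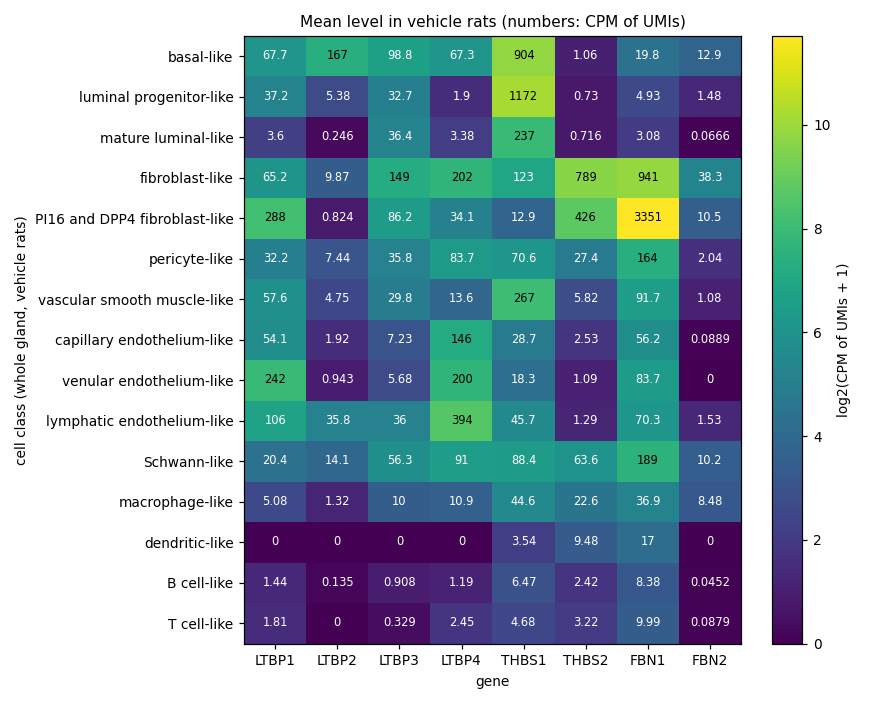
Mean level of each member (columns) in each named cell class of the whole gland (rows) over 3 vehicle rats, with CPM printed in each cell and colored as log2(CPM + 1). FBN1 peaks in the PI16 and DPP4 fibroblast-like class, LTBP4 in lymphatic endothelium-like cells, and LTBP2 in basal-like cells.

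FBN1 was at 3351 ± 449 in the PI16 and DPP4 fibroblast-like class, 941 ± 45.5 in the other fibroblast-like cells and 189 ± 66.6 in Schwann-like cells, and none of these 3 ranges overlapped. FBN2 was at 38.3 ± 11.2 in fibroblast-like cells, above 12.9 ± 5.17 in basal-like cells. THBS2 was at 789 ± 292 in fibroblast-like and 426 ± 167 in PI16 and DPP4 fibroblast-like cells, which overlapped, and at 63.6 ± 14.6 in Schwann-like cells. LTBP1 was at 288 ± 87.9 in PI16 and DPP4 fibroblast-like and 242 ± 36.1 in venular endothelium-like cells, which overlapped, ahead of 105.9 ± 13.1 in lymphatic endothelium-like cells. LTBP4 was highest in lymphatic endothelium-like cells at 394 ± 94.2, and the next 3 classes, fibroblast-like, venular and capillary endothelium-like, overlapped at 202 ± 56.3, 199.6 ± 57.7 and 146 ± 43.2. LTBP3 was highest in fibroblast-like cells at 149 ± 7.43, with basal-like cells at 98.8 ± 12.9 and PI16 and DPP4 fibroblast-like cells at 86.2 ± 12.5 overlapping below. In T cell-like cells LTBP2 had 0 of 7280668 UMIs, which allows up to 0.412 CPM.

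The genes most like 6 of the members over the 15 classes were found by Pearson correlation of log2(CPM + 1) in vehicle rats among 9298 genes, as a description over classes that share libraries. For THBS2 these were the fibroblast genes DCN, COL1A1 and COL3A1 (r = 0.991, 0.990 and 0.986), and for FBN1 PCSK5, FN1 and GFPT2 (0.949, 0.946 and 0.946). For THBS1 they were ST6GALNAC2, AABR07025295.1 and PPP1R13L (0.955, 0.938 and 0.931), and for LTBP3 NF1X, PRRC1 and ARHGEF40 (0.954, 0.941 and 0.940). LTBP1 was most like PXDN, REXO2 and SULF1 (0.907, 0.901 and 0.899) and LTBP2 most like MDK, GLRX5 and FHOD3 (0.897, 0.876 and 0.874).

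The basal and luminal sorts of vehicle rats at day 0 were compared for each member. In all, 4 members in ACI and 5 in SD were higher in the basal sort, with none higher in the luminal sort. LTBP4 was 4.50 ± 1.08 (SE) log2 units higher in ACI and 4.20 ± 0.48 in SD (limma adjusted p = 0.00253 and 1.79e-06), from 3976 to 4906 normalized counts in the ACI basal sort against 157 to 278 in the luminal sort. FBN2 was 6.93 ± 1.44 and 4.33 ± 0.50 higher (adjusted p = 0.000554 and 1.97e-06), FBN1 3.72 ± 1.00 and 4.46 ± 0.58 higher (0.00681 and 8.11e-06), and THBS2 2.74 ± 0.87 and 5.45 ± 0.64 higher (0.0232 and 2.59e-06). LTBP1 was called in SD alone (1.28 ± 0.38, adjusted p = 0.00867), and LTBP2, LTBP3 and THBS1 were not called in either strain, at 0.34 to 1.53. In sorted single cells of both strains LTBP1 was also found in luminal progenitor-like cells, as given below, so the sort contrast by itself does not place it in a single layer. Over all genes 12.4% in ACI and 26.9% in SD were called higher in the basal sort, and 20.5% and 50.1% were called in either direction. Because the sorts share rats, a fit with the rat as a block was also made, and it called LTBP2 (1.13, adjusted p = 0.00389) and THBS1 (1.53, adjusted p = 0.024) in SD as well. Without vehicle rat LD3L, LD3R or LD4R the ACI call on THBS2 was lost (adjusted p = 0.112, 0.086 and 0.139), as was that on FBN1 without LD3L or LD3R (0.0608 and 0.0589), and that on LTBP1 in SD without C6N (0.0822).

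Fibroblast markers were higher in the basal than in the luminal sort, as were THBS2, FBN1, FBN2 and LTBP4 in both strains and LTBP1 in SD. FBN2, LTBP4 and LTBP1 were also found in fibroblast-like classes of whole glands, as given above. The part of fibroblast RNA in the calls on these members was not tested, so the sort contrast does not place them in basal epithelium. The summed fibroblast markers (6 of 8 detected, from a list that includes COL1A1 and DCN) were at 54276 to 127656 in the ACI basal sort against 10950.5 to 22543 in the luminal sort, and at 371683 or more in the SD basal sort against at most 19849. In sorted single cells THBS2 had 0 of 40815354 UMIs in ACI vehicle basal-like cells and 0 of 20068343 in SD vehicle basal-like cells, which allows up to 0.0735 and 0.149 CPM. FBN1 by contrast was detected in ACI basal-like cells at 80.2 ± 6.34 CPM and had 0 of 12706336 UMIs in luminal progenitor-like cells, up to 0.236 CPM. In basal-like cells with TGFBRi THBS2 had 10 UMIs in 1 of 3 ACI rats (0.607 CPM) and at most 0.110 CPM in SD rats. In vehicle whole-gland basal-like cells THBS2 was at 0.524 to 1.63 CPM, no higher than the means of 2.42 in B cell-like and 3.22 in T cell-like cells of the same glands. Whether this is background was not tested. In bulk THBS2 was at 223, 229 and 266 normalized counts in the ACI and 2180.5 to 2903 in the SD basal sort of vehicle rats, and the part of fibroblast RNA in them was not tested. The sorted single cells, unlike the bulk sorts, had passed the authors' filter of at least 2 keratin reads per cell, so the values are not like for like.

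In young ACI rats at day 0, LTBP2 fell in the luminal and CD45+ sorts, and in the basal sort it was lower in each treated rat without passing the test. In the luminal sort LTBP2 was at 2579.6, 2363 and 1796 normalized counts in the 3 vehicle rats and at 311, 127 and 146 in the 3 TGFBRi rats. The groups lay far apart, 11.5-fold in their means, or 3.62 ± 0.59 (SE) lower on the log2 scale (limma adjusted p = 0.0266). In the basal sort the vehicle rats had 3205, 4635 and 2363 and the TGFBRi rats 876, 172 and 52.7. These groups did not overlap either, but the log2 fold change of -4.02 ± 1.12 missed the threshold (adjusted p = 0.0581) in the model that holds all 18 rats. It passed once the 4 rats that stood apart were left out (adjusted p = 0.000765) and by DESeq2 (adjusted p = 0.0163). The 3 TGFBRi basal libraries behind it themselves lay low in correlation with the others (0.824 to 0.866 against 0.922). The part of this in the results of that sort was not tested. All log2 fold changes of bulk values are on log2(normalized count + 1), and in day 0 basal and luminal sorts the median of all genes lay at 0.30 and 0.21.

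**Figure D2:**
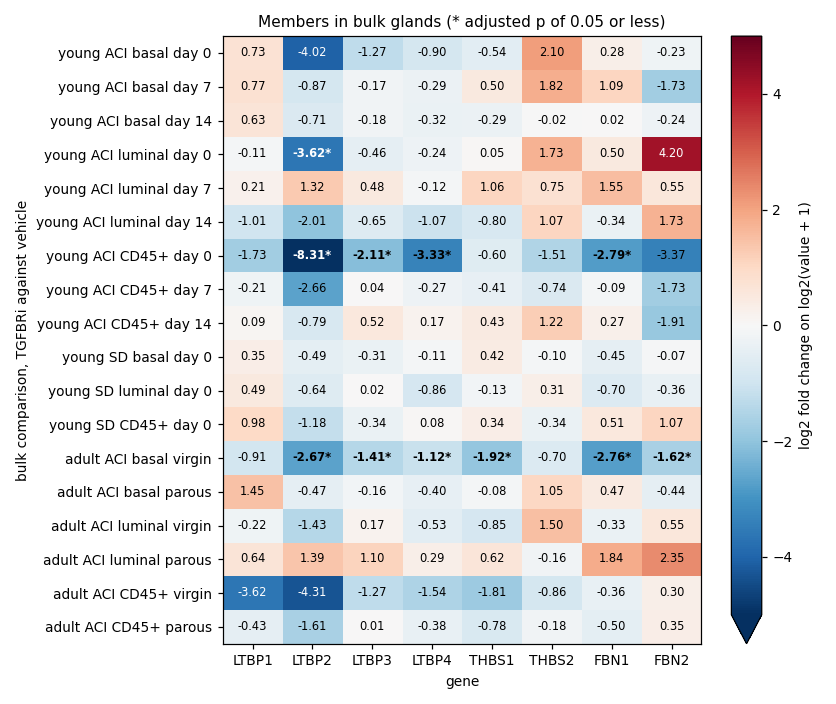
Log2 fold change (TGFBRi against vehicle, on log2 of normalized count + 1) of the 8 members (columns) in 18 bulk comparisons of glands (rows), with stars on values past an adjusted p of 0.05. LTBP2 is negative in all 3 sorts of young ACI rats at day 0, and the adult virgin basal sort is the row with 6 starred members.

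The other members of the young ACI epithelium did not pass at day 0. THBS2 was at 223, 229 and 266 in vehicle and 793, 600.2 and 2252 in TGFBRi basal sorts, higher in each treated rat (log2 fold change 2.10 ± 0.94, adjusted p = 0.175), and at 31.3 to 41.5 against 51.2 to 189 in the luminal sort (1.73 ± 0.71, adjusted p = 0.188). FBN2, nearly silent in the luminal sort of vehicle rats (2.35, 0 and 0), was at 78.2, 73.5 and 2.55 with TGFBRi (adjusted p = 0.159). THBS1 was within its spread in both sorts, at 67397 to 146676 against 95820 to 114875 in the luminal sort. Of all genes 3.34% were called in the basal and 1.01% in the luminal sort at day 0, so that 1 of 8 members in the luminal sort is a small count. Without the 4 rats that stood apart, LTBP2, LTBP3 and THBS2 in the basal sort (adjusted p = 0.000765, 0.0106 and 0.000933) and LTBP2 and FBN2 in the luminal sort (4.13e-05 and 0.0371) passed. The share of all genes called in those fits is not given here, so these calls are not read as results about the members. The luminal call on LTBP2 was lost by edgeR (adjusted p = 0.0567) and without LD3R (0.124), LD4R (0.143), LD7R (0.104) or LD11L (0.0531).

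Marker lists moved with these groups in part. In the luminal sort the summed basal markers overlapped (1047 to 2395 in vehicle, 1045 to 1315 with TGFBRi), as did the luminal progenitor markers (206717 to 253552 and 146240 to 226598). In the basal sort the summed basal markers were lower with TGFBRi (103971 to 173148 against 34266 to 79467) and PTPRC was higher (0.815 to 111 against 208 to 318), while fibroblast markers spread from 36131 to 509454 with TGFBRi, and TGFBRi rat LD10R was the highest for THBS2. Their part in the results was not tested, and in a bulk sample fewer cells of a type and less RNA per cell cannot be told apart.

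In the CD45+ sort of young ACI rats at day 0, 4 of 8 members were lower with TGFBRi, while 2.85% of all genes were called and 2.01% were called lower. LTBP2 was at 307, 493.1 and 208 normalized counts in vehicle rats and had 0 reads in all 3 TGFBRi rats, which is at least 95.6-fold lower when 3 reads are taken as the limit in each treated library (adjusted p = 9.8e-07). LTBP4 was at 2655, 3222 and 1888 against 261, 259 and 232 (log2 fold change -3.33 ± 0.49, adjusted p = 0.00284). LTBP3 was at 666, 849 and 459.6 against 115, 164 and 169 (-2.11 ± 0.43, adjusted p = 0.0198). None of these groups overlapped, and the treated rats were close to each other. The share of all genes without overlap in this sort is not given here. FBN1 was at 1935, 2158 and 5858 against 220.1, 1088 and 306 (-2.79 ± 0.69, adjusted p = 0.0422). LTBP1 (525 to 1437 against 129 to 417, adjusted p = 0.0644), THBS2 (567.9 to 1233 against 185 to 476, 0.189) and FBN2 (0 to 62.9 against 0 in each rat, 0.254) did not pass, and THBS1 overlapped (8044 to 9458 against 3357 to 9221).

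Markers of stromal and basal cells were lower in the same treated CD45+ sorts. Summed fibroblast markers were at 364633 to 738756 in the vehicle and 21687 to 148804 in the TGFBRi CD45+ sorts (COL1A2 at 0 in every treated rat), basal markers at 2594 to 10194 against 111 to 173 (TP63 at 0), pericyte markers at 962 to 1446 against 104.7 to 305 (CSPG4 at 0) and vascular smooth muscle markers at 2547 to 6329 against 332 to 622 (PLN and RERGL at 0), while PTPRC itself overlapped (3657 to 18296 and 13135 to 20409). Their part in the lower members was not tested. In whole-gland vehicle B cell-like cells LTBP2, LTBP3 and LTBP4 were at 0.135, 0.908 and 1.19 CPM, and in macrophage-like cells at 1.32, 10.0 and 10.9. The call on LTBP3 was lost without LD3R (adjusted p = 0.0845) or LD10R (0.0835), and that on FBN1 in 12 of 23 alternatives, among them edgeR (0.0961) and leaving out LD3R (0.0974), LD7R (0.113) or LD10R (0.172).

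At days 7 and 14 none of the 8 members was called in any of the 3 sorts, where at most 1 gene per contrast was called (0.00639% of genes in the basal sort at day 7 and 0.0% elsewhere). No member was called at these days in the epithelial sorts without the 4 rats that stood apart either. In the CD45+ sort LTBP2 was at 516, 331 and 608 in vehicle and 86.05, 124 and 36.9 in TGFBRi rats at day 7, still without overlap (log2 fold change -2.66 ± 0.59, adjusted p = 0.429), and at 246, 525 and 228 against 100.7, 134 and 422 at day 14. The day 0 effect on LTBP2 in that sort differed from the day 14 effect by -7.52 ± 0.84 (limma test of the difference, adjusted p = 0.000694, with 0.19% of all genes called) and from the day 7 effect by -5.64 ± 0.84 (0.0305, with 0.0135% called). The first of these differences held in each alternative run, and the second was lost in 12 of 22, for instance with a pseudocount of 8 (adjusted p = 0.3). LTBP2 had 0 reads in the treated rats at day 0, so that the size of both differences depends on the pseudocount of 1. In CD45+ sorts LTBP4 was at 1902, 1804 and 3368 with TGFBRi at day 7, overlapping the vehicle values of 2433, 2523 and 3313. Its difference of effects from day 14 had an adjusted p of 0.0531.

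**Figure D3:**
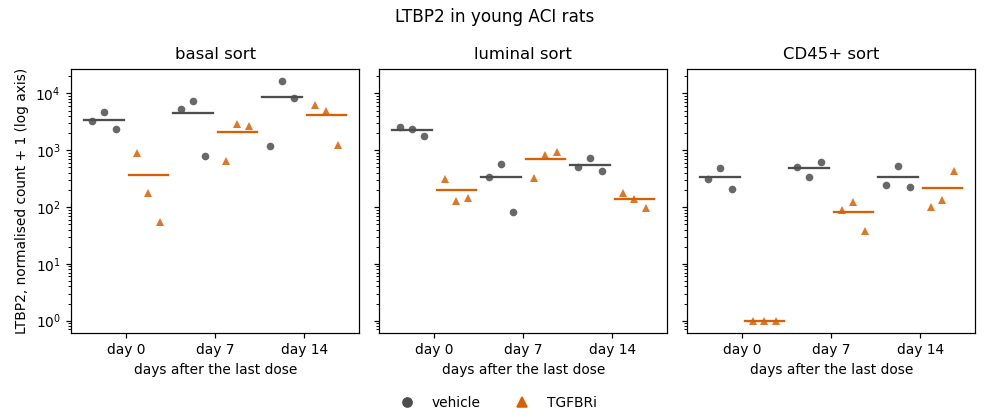
LTBP2 in each young ACI rat, as normalized count + 1 on a log axis, by days after the last dose and treatment, in the basal, luminal and CD45+ sorts, with lines at group means. At day 0 the 3 TGFBRi rats lie below the 3 vehicle rats in each sort, and at 0 counts in the CD45+ sort.

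In the luminal sort LTBP2 was at 342, 570.4 and 80.9 in vehicle rats and 320.1, 832 and 927 in TGFBRi rats at day 7, and at 503, 727 and 428 against 178, 140.04 and 94.02 at day 14, where the groups were apart (log2 fold change -2.01 ± 0.59, adjusted p = 0.304). Vehicle rats themselves moved from 1796 to 2579.6 at day 0 to 428 to 727 at day 14, by -2.04 ± 0.59, which also missed the threshold (adjusted p = 0.198) and passed without the 4 rats that stood apart (-1.99, adjusted p = 0.00513). Its day 0 effect differed from the day 7 effect by -4.94 ± 0.84, again short of the threshold (adjusted p = 0.0683) and past it without those rats (-4.61, adjusted p = 0.00089). The rats that stood apart, chosen after the data were seen, include the lowest vehicle value at day 7 (LD2LR, whose labels disagreed). They also include the lowest TGFBRi values at days 7 and 14 (LD6R and LD20L). The share of all genes called without those rats is not given here, so both passes are not read as results about LTBP2. In the basal sort LTBP2 overlapped at both later days, with 777 to 7249 against 633 to 2906 at day 7 and 1165 to 16825 against 1237 to 6126 at day 14.

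Single cells at day 0 separated the luminal progenitor-like cells, in which THBS1, LTBP2 and, in the sorted data, LTBP1 were lower with TGFBRi. Each was tested on UMIs summed per rat (edgeR adjusted p of 0.1 or less). THBS1 in sorted ACI luminal progenitor-like cells was at 2681, 3157 and 2317 CPM in vehicle and 1265, 1107 and 1463 in TGFBRi rats (log2 fold change -0.74, adjusted p = 0.00480). In whole glands it was at 1111, 933 and 1470.5 against 578, 344, 269, 170.2, 156 and 351 (-2.05, adjusted p = 0.00564). In sorted SD cells it was at 2458, 3056 and 1899 against 1292, 1277, 88.1, 144, 277 and 456 (-1.79, adjusted p = 0.0824). In all 3 data sets every TGFBRi rat lay below every vehicle rat for THBS1, and the SD TGFBRi rats differed among themselves, with rats 9 and 10 above the other 4. The SD call was lost in 8 of 12 fits that changed 1 choice, and the other 2 held in every alternative.

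LTBP2, low in these cells, fell as well. It was at 50.4, 33.2 and 37.5 CPM against 27.7, 16.2 and 16.7 in sorted ACI (log2 fold change -0.70, adjusted p = 0.0226), at 13.9, 13.7 and 5.05 against 0.796, 2.60, 0.642, 1.18, 4.35 and 0 in sorted SD (-2.40, adjusted p = 0.0263), and at 5.72, 1.08 and 9.33 against 0.622, 0.713, 0.652, 0.572, 0.914 and 1.06 in whole glands (-2.85, adjusted p = 0.00395). Mature luminal-like cells were at 0 to 0.539 CPM of LTBP2 in every data set. The treated whole-gland values in luminal progenitor-like cells, from 4 to 12 UMIs per rat, were just above that, and the highest of them was close to vehicle rat 2. Without vehicle rat SD1 the sorted SD call was lost (adjusted p = 0.119), as was the ACI call without rat 15 (0.102) or rat 7 (0.137). LTBP1 was at 52.5, 54.01 and 48.7 against 30.9, 23.1 and 21.4 in sorted ACI (-0.70, adjusted p = 0.00328) and at 62.8, 76.8 and 56.7 against 27.5, 54.1, 13.2, 23.7, 36.3 and 18.5 in sorted SD (-0.89, adjusted p = 0.0666, lost in 5 alternatives), whereas in whole glands it overlapped (26.2 to 56.9 against 19.5 to 44.02, adjusted p = 0.549).

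**Figure D4:**
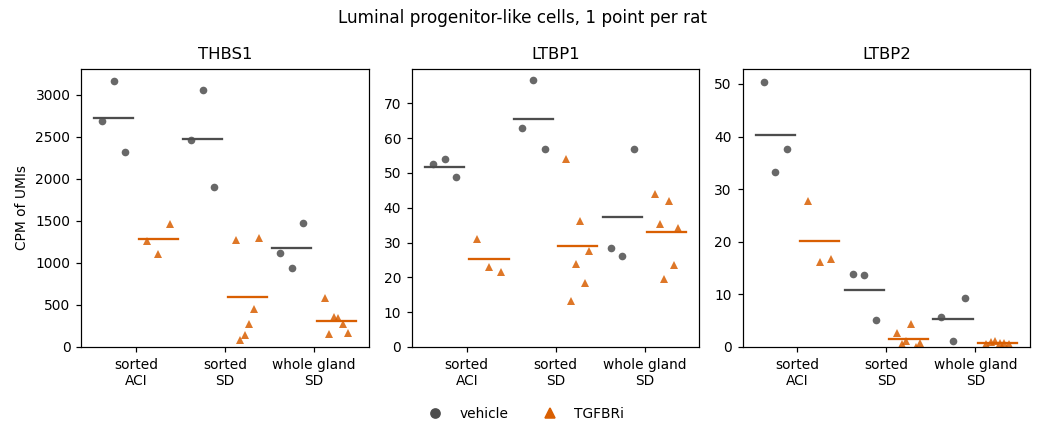
THBS1, LTBP1 and LTBP2 in luminal progenitor-like cells, as CPM with 1 point per rat and a line at each group mean, for vehicle and TGFBRi rats in the 3 single-cell data sets. TGFBRi rats lie below vehicle rats in each data set for THBS1, and overlap for LTBP1 in whole glands.

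In luminal progenitor-like cells 28.2% of all genes were called in sorted ACI, 34.2% in sorted SD and 27.1% in whole glands, and 13.6%, 16.2% and 14.7% were called lower. Of the members 5, 6 and 8 passed the filter of 10 UMIs and 3, 3 and 3 were called, each of them lower. Whether their share differs from that of all genes was not tested. Different clusters held most of the class in the 2 treatments of the sorted data. In ACI cluster 8 held 87.9% of vehicle and cluster 7 held 87.5% of TGFBRi luminal progenitor-like cells, and in SD cluster 2 held 92.5% of vehicle cells against clusters 0 and 7 with 46.1% and 26.5% of TGFBRi cells, cluster 7 being 89.2% from 1 library. In whole glands cluster 2 led in both, with 70.6% and 52.2%, and cluster 6, with a median of 851 UMIs per cell, held 25.4% and 42.7%.

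In basal-like cells THBS1 was called lower in the sorted data sets and was not called in whole glands. It was at 2914, 2690.3 and 3282 against 1947, 1789 and 2066 in sorted ACI (-0.38, adjusted p = 0.0313) and at 3831, 2216 and 4947 against 2714, 2039, 425, 411, 419 and 1162 in sorted SD (-1.25, adjusted p = 0.0979), lower in both, with overlap in SD. The SD call was lost in 8 of 12 alternatives (adjusted p = 0.338 without rat 3), and the ACI call without rat 12 (0.101) or rat 15 (0.153). In whole glands, which were counted by a 5′ protocol and came from other rats, it was at 931, 1114 and 666 against 1580.3, 1435, 852, 985, 1325 and 1892 (0.58, adjusted p = 0.114). Data sets were not tested against each other. LTBP2, whose mean in the ACI bulk basal sort was 9.27-fold lower with TGFBRi without passing the threshold, was at 138, 107.9 and 65.7 CPM against 82.2, 72.8 and 71.4 in ACI basal-like single cells (-0.24, adjusted p = 0.561) and at 66.2 to 146 against 63.1 to 134 in SD. These rats are not the bulk rats, and the 2 values are side by side only.

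Among the other members LTBP4 was raised in basal-like cells of sorted ACI (56.97, 59.3 and 44.5 against 56.2, 67.9 and 56.2, log2 fold change 0.39, adjusted p = 0.0275), although the CPM values overlapped and the call was lost without rat 15 (adjusted p = 0.103). THBS2 there just missed the threshold (edgeR adjusted p = 0.105), with 10 UMIs in TGFBRi rat 12 (0.607 CPM) and 0 in the other 2 TGFBRi and the 3 vehicle rats. In whole-gland basal-like cells FBN1 rose from 17.02, 24.5 and 17.9 to between 23.9 and 32.8 (0.57, adjusted p = 0.0141), FBN2 from 7.81 to 18.1 to between 11.6 and 31.2 (0.76, adjusted p = 0.0876, lost in 7 alternatives) and LTBP1 fell from 45.9 to 79.9 to between 31.8 and 58.9 (-0.65, adjusted p = 0.0549, and 0.221 without vehicle rat 1). FBN1 in sorted SD basal-like cells went the other way without being called (-0.52, edgeR adjusted p = 0.123). Of all genes 34.1%, 30.0% and 45.6% were called in basal-like cells of sorted ACI, sorted SD and whole glands, against 2 of 8, 1 of 7 and 3 of 8 members. ACI clusters 0 and 1 held 48.3% and 33.9% of vehicle and clusters 4 and 6 held 37.7% and 30.5% of TGFBRi basal-like cells. SD cluster 6 held 91.7% of vehicle and clusters 1, 4 and 5 held 36.7%, 29.4% and 26.4% of TGFBRi cells. Whole-gland cluster 11 held 80.2% of vehicle and cluster 4 held 93.03% of TGFBRi cells.

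Outside the epithelium, whole glands showed members moving in both directions. THBS2 in fibroblast-like cells was at 978, 937 and 453 CPM in vehicle and at 308 to 551 with TGFBRi, overlapping at the lowest vehicle rat (-1.10, adjusted p = 0.00250). In venular endothelium-like cells FBN1 rose from 67.5, 77.1 and 106.6 to between 149.9 and 229 (1.05, adjusted p = 7.73e-05) and LTBP1 from 211, 233 and 282 to between 325 and 532 (0.60, adjusted p = 0.00756), with no overlap for either. FBN1 in pericyte-like cells rose from 156 to 175 to between 225 and 295 (0.43, adjusted p = 0.0268). THBS1 fell in Schwann-like cells from 123, 93.9 and 47.9 to between 6.71 and 25.4 (-2.46, adjusted p = 1.84e-05), on 1 to 11 UMIs per treated rat, and in capillary endothelium-like cells from 36.6, 32.2 and 17.3 to between 3.94 and 19.6 (-1.39, adjusted p = 0.0178). The THBS2, venular and Schwann-like calls held in every alternative, the capillary call was lost without vehicle rat 1 (adjusted p = 0.109) and the pericyte call with the title number as a block (0.2).

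The background was again wide. Called genes were 30.7% of those tested in fibroblast-like, 33.1% in venular, 23.2% in capillary endothelium-like, 27.2% in pericyte-like, 10.9% in Schwann-like, 27.0% in mature luminal-like and 17.5% in B cell-like cells. Of the members 1 of 8, 2 of 6, 1 of 7, 1 of 8, 1 of 8, 2 of 6 and 1 of 7 were called, in the same order. None of 8 was called in macrophage-like, of 7 in vascular smooth muscle-like, or of 6 in lymphatic endothelium-like and in T cell-like cells. Of all genes 4.01%, 18%, 15.5% and 7.96% were called in those classes. Whether the share of the members differs from that of all genes was not tested. In mature luminal-like cells of whole glands THBS1 fell (188 to 324 against 103.1 to 196, -0.72, adjusted p = 0.0595) and LTBP3 rose (31.5 to 44.1 against 42.7 to 63.2, 0.49, adjusted p = 0.0551), while none of 4 members tested was called in that class in sorted ACI or sorted SD, where 26.1% and 32.1% of genes were. In addition 2 calls rested on few UMIs and were lost in 9 of 13 alternatives. These were FBN2 in luminal progenitor-like cells (5 to 16 against 1 to 10 UMIs per rat, adjusted p = 0.0957) and LTBP3 in B cell-like cells (0 to 11 against 2 to 4, adjusted p = 0.0834). In B cell-like cells LTBP3 was at 0 to 1.91 CPM in vehicle and 0.365 to 0.558 in TGFBRi rats, beside 0 to 0.894 in T cell-like cells of the same libraries and 149 ± 7.43 in vehicle fibroblast-like cells, so that it was not read as a change in B cell-like cells. The mature luminal-like call on THBS1 was lost without vehicle rat 4 (adjusted p = 0.255) and that on LTBP3 without vehicle rats 2 or 4 (0.185 and 0.193). In PI16 and DPP4 fibroblast-like cells, where FBN1 was highest, none of 8 members was called, beside 9.86% of all genes.

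In adult virgin ACI rats the basal sort was where most members fell. In all 6 of the 8 members were lower with TGFBRi (limma adjusted p of 0.05 or less) while 8.73% of all genes were called and 6.23% were called lower, and the median log2 fold change of the 8 members was -1.52 beside -0.25 for all genes. LTBP2 was at 14727, 26229, 52267 and 31182 normalized counts in vehicle and 5502, 5157, 2929 and 4642 in TGFBRi rats. The highest treated rat lay well below the lowest vehicle rat, and the means differed 6.82-fold (log2 fold change -2.67 ± 0.45, adjusted p = 0.00259). FBN1 was at 3151, 1137, 1458 and 956 against 194, 234, 92.4 and 556 (-2.76 ± 0.44, adjusted p = 0.00195), again without overlap.

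**Figure D5:**
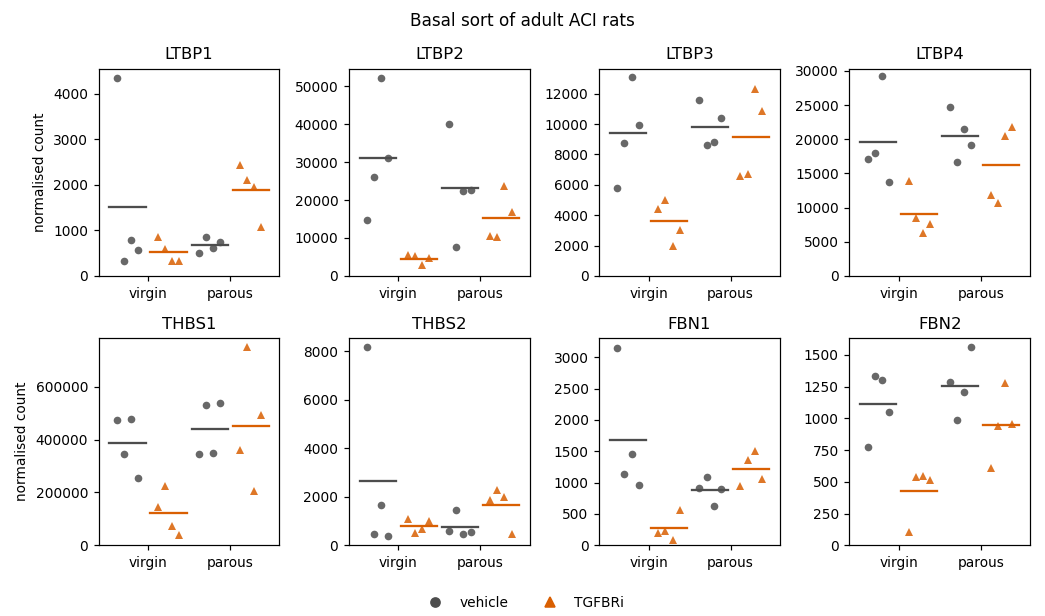
Normalized counts of the 8 members in the basal sort of adult ACI rats, with 1 point per rat and a line at each group mean, for virgin and parous rats given vehicle or TGFBRi. In virgin rats LTBP2, LTBP3, THBS1, FBN1 and FBN2 do not overlap between treatments, and LTBP2, LTBP3, LTBP4, THBS1, FBN1 and FBN2 overlap in parous rats. Overlap is described for the members only, without the share of all genes.

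THBS1 was at 473337, 345418, 478113 and 255147 in vehicle virgin rats against 145524, 225662, 74307 and 39920 (-1.92 ± 0.46, adjusted p = 0.0175). LTBP3 was at 5817, 8758, 13102 and 9934 against 4421, 4979, 1980.3 and 3015 (-1.41 ± 0.30, adjusted p = 0.0101) and FBN2 at 770.3, 1329.6, 1298 and 1053 against 104.4, 536, 543 and 514 (-1.62 ± 0.42, adjusted p = 0.0262). These 3 did not overlap between groups. LTBP4 did, with 17091, 18049, 29188 and 13799.8 against 13936, 8534, 6218 and 7604 (-1.12 ± 0.29, adjusted p = 0.0278). The share of all genes without overlap between these groups is not given here, and 3461 of 13442 genes had an unadjusted p under 0.05. LTBP1 (332 to 4357 against 321 to 848) and THBS2 (398 to 8149.6 against 525 to 1068) were not called, and the highest value of each belonged to C_N1N. The calls on LTBP2 and FBN1 held in every alternative, whereas with each pair of groups fitted alone LTBP3, LTBP4, THBS1 and FBN2 were lost (adjusted p = 0.0672 to 0.135), as were LTBP4, THBS1 and FBN2 without C_N2N (0.101, 0.0562 and 0.0778). LTBP4 was also lost without C_N1R (0.0551), D_N2N (0.0784) or D_N2R (0.0517) and with the shared rat name as a block, and FBN2 without C_N1R (0.0666) or C_N2R (0.0567).

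Without C_N1N all 6 calls held (adjusted p = 0.00235 to 0.0425). Its basal library had a median correlation with the others of 0.874, and the treated libraries D_N2N, D_N2R and D_N1N were at 0.859, 0.875 and 0.912, against 0.944 over all. Summed basal markers overlapped between the groups (230431 to 470943 and 180738 to 389652), as did fibroblast markers (27215 to 77030.1 and 10116 to 118228) and pericyte markers (1029 to 4319 and 403 to 1439.6), and endothelial markers were at 849 to 11426 against 401 to 959.9. Their part in the result was not tested.

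Parous rats, which had borne litters before dosing, showed none of these calls, and 1 gene of 13442 passed (0.00744%). LTBP2 was at 40107, 7568, 22457 and 22627 in parous vehicle against 10395, 10232, 23646 and 16845 in parous TGFBRi rats, and THBS1 at 343367 to 539150 against 206977 to 747905. LTBP1 was the exception in its order, with 500.4 to 849 against 1079 to 2434 and no overlap, but it did not pass (1.45 ± 0.57, adjusted p = 0.939). The difference of the effects between virgin and parous rats was called for FBN1 (-3.23 ± 0.62, adjusted p = 0.0249), where 1.04% of all genes were called, and it was lost without C_N2N, C_P2N, D_P1R, D_P2N or D_P2R (adjusted p = 0.0509 to 0.0638). For LTBP2 the difference was -2.20 ± 0.63 (adjusted p = 0.0982) and for THBS1 -1.84 ± 0.64 (0.173), so that virgin and parous rats were not shown to differ for them.

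No member passed in the other adult sorts. In the CD45+ sort of virgin rats LTBP2 was at 833, 317, 541 and 266 against 134, 0 and 81.03, without overlap (adjusted p = 0.779), and LTBP1 at 217 to 1714 against 0 to 225 (adjusted p = 0.889). Both zeros belonged to TGFBRi rat D_N1R, whose library had the lowest median correlation with the others of that sort (0.747 against 0.903 over all). In the luminal sort of parous rats LTBP3 was higher in each TGFBRi rat, with 617 to 1238 against 1701 to 2259.8 (1.10 ± 0.24, adjusted p = 0.0981). Called genes were 0.0% and 0.0281% in the virgin and parous luminal sorts and 0.022% and 0.0% in the CD45+ sorts. Parity itself in vehicle rats gave no call on a member in 24 tests, nor on any gene (0% in each sort by limma). Of the 24 member tests 4 had an unadjusted p under 0.05. All of these were in the luminal sort, where 1361 of 14243 genes had such a p.

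Young SD rats at day 0 gave no call in bulk, on a member or on any gene (0.0% in each of the 3 sorts by limma), and 0 of 24 member tests had an unadjusted p under 0.05. LTBP2 in the luminal sort was at 428, 1047, 676 and 1866 in vehicle and 1583, 486, 394 and 311 in TGFBRi rats (log2 fold change -0.64), and THBS1 at 3047 to 52329 against 4440.2 to 42966. The TGFBRi rats overlapped the vehicle rats for LTBP2 and THBS1 in both epithelial sorts. A difference between the strains was not tested, and for no member did every ACI rat move one way and every SD rat the other.

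In the NMU glands no member passed in 48 tests by limma, of which 12 had an unadjusted p under 0.05. Of all genes 163 and 2605 of 13312 had such a p in the basal contrasts (tumor-free, then tumor-bearing). In the same order these were 2688 and 2287 of 14128 in the luminal and 404 and 1011 of 13297 in the CD45+ contrasts. Whether the members differ from all genes in this was not tested. THBS1 in the luminal sort was at 13042, 8500.5 and 48552 in tumor-bearing vehicle rats, 77496, 105867 and 92846 in tumor-free TGFBRi rats and 68203, 18766 and 115001 in tumor-bearing TGFBRi rats. The tumor-free group lay above the vehicle rats (2.38 ± 0.67, adjusted p = 0.0889). The low vehicle values came from rats C2N and C2R, whose luminal libraries had a median correlation with the others of 0.782 and 0.831 against 0.909 over all. The vehicle rat at 48552 did not stand apart (0.917). The low tumor-bearing TGFBRi value of 18766 also came from a library that lay low (D3R, at 0.838). The part of these libraries in the THBS1 values was not tested. Of all genes 0.948% passed in the luminal tumor-free and 0.212% in the luminal tumor-bearing contrast. LTBP3 in that sort was at 604 to 837 against 879 to 1766 and 1263 to 2082 (adjusted p = 0.226 and 0.158). In the luminal tumor-free contrast LTBP4 was higher (2.18, adjusted p = 0.231) and FBN2 lower (-3.22, adjusted p = 0.146), neither past the threshold. In the CD45+ sort THBS2 was at 5600.3 to 9899.8 in vehicle, 2065 to 7033 in tumor-free and 750.4 to 2235 in tumor-bearing TGFBRi rats (adjusted p = 0.23 for the last), and FBN1 at 2342 to 5234 against 458 to 2276 and 544 to 1004. Summed fibroblast markers of that sort were at 180590 to 398887, 163466 to 288064 and 108921 to 149636 in the same order, and PI16 and DPP4 fibroblast markers at 12937 to 20228, 6667 to 33971 and 3145 to 7908. Both sums were lower in tumor-bearing TGFBRi than in vehicle rats without overlap. Basal markers (6830 to 12253 in vehicle, 19425 to 245804 in tumor-bearing TGFBRi rats) and vascular smooth muscle markers (2324 to 3198 and 6165 to 56551) were higher without overlap. LTBP2 was at 177 to 244 in vehicle and 282, 448 and 7826 in tumor-bearing TGFBRi rats (adjusted p = 0.572), the highest in D2N, whose library lay low in correlation with the others (0.812 against 0.882 over all). The part of these markers was not tested. The basal contrasts called 0.0% and 1.31% of genes and the CD45+ contrasts 0.0% and 0.015%.

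E2 glands gave no call on a member in 48 tests, and 3 had an unadjusted p under 0.05. Of all genes 828 and 863 of 13590 had such a p in the luminal contrasts with E2 (tumor-free, then tumor-bearing). In the CD45+ tumor-bearing contrast these were 1126 of 13483. LTBP2 in the luminal sort was at 1113 to 2942 in vehicle rats with E2, all tumor-bearing, at 137 to 906 in tumor-free and at 138 and 489 in tumor-bearing TGFBRi rats with E2, and at 203 to 1179 in vehicle rats without a pellet. The TGFBRi rats with E2 lay below the vehicle rats with E2 in both contrasts (-1.98 ± 0.85 and -2.69 ± 1.04, adjusted p = 0.77 and 0.719). The luminal contrasts called 0.0147%, 0.0147% and 0.00736% of genes (without E2, tumor-free and tumor-bearing with E2), and the CD45+ contrasts 0.0%, 0.0% and 0.0223%. E2 against no E2 in vehicle rats called no member in 16 tests, beside 1.48% of all genes in the luminal and 0.282% in the CD45+ sort. Of these tests 3 had an unadjusted p under 0.05, as had 1972 of 13590 genes in the luminal and 1626 of 13483 in the CD45+ sort. Vehicle rats with E2 all bore tumors and those without E2 were tumor-free, so that E2 and tumor status cannot be told apart here.

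NMU tumors gave no call on any gene (0.0% in both sorts by limma) and no member had an unadjusted p under 0.05 in 16 tests. In the EPCAM+ sort THBS1 was at 12871, 9045 and 11935 in vehicle and 18860.5, 8234 and 740.3 in TGFBRi tumors, and FBN1 at 484 to 7963 against 3289.7 to 8326. Summed fibroblast markers of that sort were at 118999 to 1490400 in vehicle and 367240 to 1119350 in TGFBRi tumors. Summed luminal markers were at 59728 to 136948 and 31271 to 73017. The part of fibroblast RNA in these values was not tested. In CD45+ cells of the same tumors THBS1 was at 79.5 to 617 against 0.914 to 996. The sorts were scaled apart, so that these levels are given within each sort only, and in CPM THBS1 was at 40.7 to 1142 in EPCAM+ cells and 0.0869 to 87.7 in CD45+ cells.

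Genes that work with the members were read from fixed lists. In the adult virgin basal sort, where 8.73% of all genes were called and 6.23% called lower, 1 of 12 tested elastic fiber and microfibril partners fell (LOX, the lysyl oxidase that cross-links elastin and collagen, -4.45, adjusted p = 0.0236), as did 2 of 9 proteases that act on the latent complex (MMP14, -1.06, adjusted p = 0.00531, and MMP2, -0.81, adjusted p = 0.0443). None of 3 TGFβ ligands, 7 integrins and anchors or 5 TGFβ targets passed there. The 1 of 12 is near that background. In the young ACI CD45+ sort at day 0, beside 2.85% of all genes called and 2.01% called lower, 4 of 11 elastic fiber partners were lower, namely ELN, which encodes elastin (-5.07, adjusted p = 0.0028), MFAP2 (-3.27, 0.0228), MFAP5 (-2.97, 0.0313) and FBLN5 (-1.93, 0.0494). There 1 of 3 small proteoglycans (BGN, -3.68, 0.0036), 1 of 5 other thrombospondins and receptors (THBS3, -2.92, 0.041), 1 of 3 ligands (TGFB3, -2.59, 0.0322), 1 of 9 proteases (HTRA1, -2.52, 0.0239) and 1 of 5 TGFβ targets (CTGF, -2.30, 0.0322) were lower as well, and none of 7 integrins and anchors passed. The fibroblast, pericyte and vascular smooth muscle marker sums given above were lower in the same treated libraries, without overlap, and their part in these genes was not tested either. In the young ACI luminal sort at day 0, where LTBP2 was the member called, the TGFβ target PMEPA1 was the only list gene that passed (-1.45, adjusted p = 0.0449, beside 1.01% of all genes called).

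In luminal progenitor-like cells some integrins, of a family that can pull TGFβ free of its propeptide, were called lower, none of them in all 3 data sets. These were ITGB3 (-0.83) and ITGB8 (-0.46) in sorted ACI, ITGAV (-0.99), ITGB3 (-2.06) and ITGB6 (-1.35) in sorted SD, and ITGAV (-0.76), ITGB1 (-1.02) and ITGB6 (-3.42) in whole glands, which is 2 of 6, 3 of 6 and, with LRRC32 (-1.43), 4 of 7 tested genes of the list of integrins and anchors, beside 28.2%, 34.2% and 27.1% of all genes called. The TGFβ target CCN2 was lower in all 3 (-1.20, -2.003 and -2.60, edgeR adjusted p = 0.0811, 0.0346 and 0.00881), and PMEPA1, SMAD7 and SKIL in sorted SD (-1.10 to -1.57). In whole-gland basal-like cells the same targets were higher with TGFBRi, with PMEPA1 at 0.82, SMAD7 at 1.63, SKIL at 1.41 and CCN2 at 0.60 (adjusted p = 0.0122, 0.00672, 0.00195 and 0.0386). The ligand TGFB3 was raised in whole-gland luminal progenitor-like (2.15, adjusted p = 0.000219) and basal-like cells (1.61, adjusted p = 0.00249) but lowered in sorted ACI luminal progenitor-like cells (-0.45, adjusted p = 0.0153). As for the members, these counts stand beside 27.1% to 45.6% of all genes called in the same fits.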

How the data were processed

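Bulk values were deposited by the authors as normalized counts, a signal scaled by DESeq2 size factors, after STAR alignment to rn6 and unstranded htseq-count on refGene genes. Basal and luminal libraries of young ACI rats were scaled together, as were those of young SD rats with the NMU glands, and other sorts apart. All 2526550 values above 0 (100% within a tolerance of 0.001) gave whole reads when divided by the library's step, with a median of 20100223 reads per library. Reads on no gene were 23.1% to 42.5% where listed. Sorted single cells (10x 3′ libraries) and whole glands (10x 5′ libraries) were deposited by the authors as UMI counts, after Cell Ranger and the authors' filters on cells. An extra step for sorted cells removed those with a PTPRC read or with fewer than 2 keratin reads.

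Bulk values were tested by limma 3.58.1 (R 4.3.3) on log2(value + 1) with trend and robust moderation, over genes summing to 10 or more, with all groups of a sort in 1 model and calls were made at a p of 0.05 after Benjamini-Hochberg adjustment. Cells were clustered in scanpy 1.11.5 (2000 variable genes, 30 components, 20 neighbors, Leiden resolution 0.8) and named from fixed markers. Clusters left unnamed belong to no class and were not tested. In sorted SD TGFBRi rat 14 they held 2107 cells, beside 140 luminal progenitor-like cells. UMIs were summed per rat and class (10 or more cells, genes with 10 or more UMIs) and tested by edgeR 4.0.16 quasi-likelihood after TMM scaling, with calls at 0.1 after the same adjustment. Doublets were left in, and an alternative dropped the 6% of cells with the highest Scrublet score. Alternatives included edgeR and DESeq2 1.42.0 on recovered reads, a pseudocount of 8, no filter, leaving out each rat, fitting each contrast on its own groups, and replicate blocks. The basal and luminal sorts come from the same rats, which is a pairing by design, so that the block on the rat is given for that contrast.

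The tests were run on simulated data with known changes, in which only well-counted genes were changed, and by large amounts. These runs do not cover small changes or genes with few counts, and their outcome is not given here. No pair of libraries of a table, within or across groups, agreed within sampling noise (smallest chi-square per degree of freedom 20.0 over 1379 pairs). Every member is named, other genes come from fixed lists or from the rank of likeness (not reported here for LTBP4 and FBN2), and the members and lists were chosen with earlier results of these data known. Promoters were matched by symbol for 7 of 8 members. Floors of 3 counts cover counting error only.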

Additional observations from a re-analysis of the deposited data

Results flagged for a closer look

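Samples that stood far from the rest of their group were found in 26 of 313 groups of members and rats (8.31%). The cutoffs used flag about 1 in 20 groups of normally distributed values, and the rate for values like these was not measured. No explanation was tested for any of them.

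In the bulk sorts several of these values were near 0. In E2 glands FBN2 was at 0.914 in vehicle rat A4-8 and 8.03 in TGFBRi rat A4-15 in the CD45+ sort, and at 2.31 in A4-8 and 95.8 in vehicle rat A4-37 in the luminal sort, while the others of each group were at 0. LTBP2 was at 0 in TGFBRi rat A4-4 (CD45+, others 0.748 to 0.884) and LTBP4 at 75.1 in vehicle rat A4-28 (luminal, others 456 to 543). In the adult basal sort THBS2 was at 487 in parous TGFBRi rat D_P2R (others 1851 to 2264) and 1473 in parous vehicle rat C_P1R (others 478 to 577), and FBN2 at 104.4 in virgin TGFBRi rat D_N1N (others 514 to 543). Virgin vehicle rat C_N1N had FBN1 at 813 (others 63.1 to 75.7) and LTBP1 at 1503 (others 271 to 299) in its luminal sort. THBS2 was at 2903 in the basal sort of SD vehicle rat C6N (others 2180.5 to 2276).

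Among the single cells the values are CPM of UMIs in TGFBRi rats. In sorted SD cells FBN1 was at 20.3 in endothelium-like cells of rat 13 (others 91.3 to 137), and at 248 in fibroblast-like and 49.2 in vascular smooth muscle-like cells of rat 14 (others 1313 to 1674 and 77.4 to 96.1). In whole glands rat 1 had LTBP4 at 58.01 in PI16 and DPP4 fibroblast-like cells (others 20.1 to 29.5), THBS1 at 252 in dendritic-like cells (others 0 to 6.89), FBN2 at 2.33 in pericyte-like cells (others 4.48 to 6.27), and FBN1 at 55.6 and LTBP3 at 0 in vascular smooth muscle-like cells (others 107.5 to 141 and 30.7 to 46.9). Its vascular smooth muscle-like class held only 16 cells and 53946 UMIs, so both of those values rest on very few UMIs. Rat 4 had LTBP1 at 0.186 in B cell-like (others 0.912 to 1.52) and THBS2 at 9.22 in Schwann-like cells (others 51.9 to 109). Rat 6 had LTBP3 at 0 in T cell-like (others 0.537 to 0.894) and LTBP4 at 50.9 in pericyte-like cells (others 100.4 to 118). LTBP4 was at 319 in lymphatic endothelium-like cells of rat 11 (others 450.1 to 525.7) and at 0 in T cell-like cells of rat 14 (others 0.680 to 1.12).

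Treatment effects differed between groups in 3 of 72 tests of the difference itself, by limma. These were LTBP2 in the young ACI CD45+ sort, at -5.64 for day 0 minus day 7 and -7.52 for day 0 minus day 14, and FBN1 in the adult basal sort, at -3.23 for virgin minus parous. The sizes for LTBP2 depend on the pseudocount, since its treated rats had 0 reads at day 0.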

How the results depend on the processing

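Of 47 called results of members, 20 were called in every alternative run, 27 were not called in at least 1 and 0 reversed. Counts of called members moved as follows. In the young ACI epithelium 1 call became 0 by edgeR, 5 by DESeq2, 2 with a pseudocount of 8, 4 with each contrast on its own groups and 5 without the 4 rats that stood apart, an alternative chosen after seeing the data. In the young ACI CD45+ sort 4 became 7 by DESeq2 and 2 on own groups. In adult rats 6 became 2 on own groups. In the NMU glands 0 became 6 by DESeq2 and 2 on own groups. Among the tests of differences 3 became 11 by DESeq2. For day 14 against day 0 in vehicle rats 0 became 3 by DESeq2, 1 on own groups and 3 without the 4 rats, and for E2 against no E2 0 became 1 on own groups. In sorted SD cells 4 became 2 with no filter. The causes were not tested. In many bulk contrasts DESeq2 also called more of all genes than limma. At day 0 these were 1228 of 15522 against 523 of 15643 in the young ACI basal sort, and 1042 of 14703 against 420 of 14761 in the CD45+ sort. In the NMU luminal tumor-free contrast they were 1364 of 14094 against 134 of 14128. Among the differences they were 823 of 14703 against 28 of 14761 for CD45+ day 0 minus day 14, and 162 against 2 for day 0 minus day 7. For adult basal virgin minus parous they were 577 of 13130 against 140 of 13442. For day 14 against day 0 in vehicle CD45+ sorts they were 470 of 14703 against 19 of 14761. For the other alternatives the share of all genes is not given here, so their counts are not read as results about the members.

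Without 1 rat the counts ran from 0 to 2 in the young ACI epithelium, 2 to 5 in the CD45+ sort, 0 to 0 in young SD, 3 to 7 in adults, 0 to 3 in NMU glands, 0 to 0 in NMU tumors and in E2 glands, 7 to 10 for basal against luminal, 2 to 4 for differences, 0 to 0 for day 14 against day 0, for parity and for E2, 3 to 7 in sorted ACI, 0 to 4 in sorted SD and 12 to 24 in whole-gland cells, the highest without vehicle rat 4.

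With a replicate block the counts were 5 in adults against 6, 11 for basal against luminal against 9, and 14 in whole-gland cells against 15. Adult rat names and whole-gland numbers are shared between groups, but same-named samples did not deviate together in every pair (r from -0.455 to 0.298 and from -0.385 to 0.295), so they were not taken as pairs. Depth limits the members at few UMIs, such as LTBP3 in B cell-like cells.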
